A study of Mus musculus with 15 samples.

Results

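The transcriptome of double-mutant (DM) mice was set against that of ApoE4 single-mutant mice, with each genotype first compared with the wild-type (WT) mice of its own batch. For every expressed gene the quantity described is a difference of differences on the log2 scale: DM minus WT in batch 1, less ApoE4 minus WT in batch 2. A positive value means that the gene stood higher in DM mice, relative to their WT mice, than in ApoE4 mice relative to theirs. Levels are given in CPM, counts scaled to the size of the library, and a gene was taken as expressed where at least 3 libraries exceeded 1 CPM, which left 16171 of the 55471 gene IDs of the table. The comparison rests on 12 of the 15 libraries of the series, 3 for each of 4 groups.

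DM mice came from matings of the 2 single mutants. They were AppNL-G-F/NL-G-F, with the knock-in mutations in both *App* alleles, and in addition Apoe4+/wt, with human *APOE4* in place of 1 *Apoe* allele. ApoE4 mice were ApoE4+/wt, with the same single human allele and wild-type *App*, and both groups of WT mice were of the C57BL/6JInv strain. All were females of 3 months, and poly(A) RNA of the whole hippocampus was sequenced. DM mice and their WT mice formed batch 1, together with an *App* single mutant. That group entered the filter for expressed genes, the scaling and the estimate of the spread, but not the contrast. ApoE4 mice and their WT mice formed batch 2. A shift that a batch gives to its mutant and its WT alike cancels in the difference of differences, whereas a shift that acts on them unequally cannot be told apart from genotype. DM mice differ from ApoE4 mice in their *App* alleles, so the contrast asks what mutant *App* adds to a background with 1 copy of *APOE4*. Per the study's methods the *App* line came from another source than the ApoE4 and WT mice. Other variants carried by that line cannot be told apart from mutant *App*.

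The *App* knock-in places familial Alzheimer's disease mutations in the mouse gene, under its own promoter, so that amyloid beta is made in excess without overexpression of the precursor. *APOE4* encodes a variant of apolipoprotein E, the main carrier of cholesterol and other lipids between cells of the brain, which is made largely by astrocytes and microglia. Apolipoprotein E reaches the walls of cerebral vessels as well, where endothelial cells, pericytes, smooth muscle cells and perivascular fibroblasts form the barrier and regulate flow.

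A pair of gene programmes in the contrast have well-known regulatory elements, and promoter stretches of 2 members of each are shown to tell a reader which letters are meant. Interferon-induced genes carry the interferon-stimulated response element, searched here on both strands as GAAA, any 2 bases and GAAA again. Genes of cholesterol synthesis are driven by sterol regulatory element-binding proteins together with factor NF-Y, which binds the CCAAT box, searched as CCAAT on both strands. The windows of 80 bases below are RefSeq promoter sequence of build GRCm38.p6, and capitals mark every match to the element searched for that gene, read on the strand of the gene.
Ifit1 (chr19:34640759-34640838, plus strand): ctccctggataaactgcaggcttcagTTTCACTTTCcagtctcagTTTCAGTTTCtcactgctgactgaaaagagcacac
Ifit3 (chr19:34583355-34583434, plus strand): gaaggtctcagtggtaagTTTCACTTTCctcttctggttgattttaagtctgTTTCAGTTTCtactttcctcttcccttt
Insig1 (chr5:28071162-28071241, plus strand): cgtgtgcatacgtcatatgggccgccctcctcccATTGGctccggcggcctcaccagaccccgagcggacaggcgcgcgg
Nsdhl (chrX:72918491-72918570, plus strand): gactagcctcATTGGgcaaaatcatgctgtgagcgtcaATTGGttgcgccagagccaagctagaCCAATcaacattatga
Promoter windows ran from 250 bases before to 50 after the start, and a gene counted where any of its entries matched. The interferon element was found in 10 of the 15 interferon-response genes with a promoter entry (66.7%). Its share was 3.99% of all 27025 genes with an entry and 3.45% of those tested here. The CCAAT box was found in 14 of the 14 cholesterol genes with an entry. Its share was 41.1% of all genes with an entry and 42.5% of those tested here. The elements searched do not overlap in the 4 promoters shown. These matches are a description of letters and say nothing about binding in these mice.

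No gene passed the test. A gene was called where its p, adjusted by Benjamini-Hochberg across the 16171 genes, was under 0.1. By the edgeR quasi-likelihood test 0 were called, and the lowest adjusted p was 0.367. Without adjustment 1063 genes (6.57%) had a p under 0.05, of which 660 had a higher value in DM mice (4.08% of all genes) and 403 a lower one (2.49%). The robust likelihood ratio test of edgeR, the kind of test the study used, called 72 genes, 44 higher and 28 lower, and DESeq2 called 31, 15 higher and 16 lower. The excess of higher values depended on the scaling: 62.1% of genes with an unadjusted p under 0.05 were higher with upper quartile scaling, 47.8% with TMM, 47.3% with the median of ratios and 45.6% with DESeq2. Leaving out ApoE4 replicate 3 lowered the 1063 genes to 685, and leaving out DM replicate 1 gave 1460. Everything that follows therefore gives values, counts and errors of genes that the quasi-likelihood test did not call. The likelihood ratio test and DESeq2 called some of them. The 72 of the likelihood ratio test include *Gh*, *Prl* and *Pomc*, genes of pituitary hormones.

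The median standard error of a gene was 0.15 on the log2 scale, and 151 genes lay above 1 and 56 below -1. Over all genes the median difference of differences was 0.02 and 55.9% of values were above 0. The 3 DM libraries, each expressed relative to the mean of its WT libraries, all lay above the 3 ApoE4 libraries treated alike for 14.1% of genes and all below for 9.74%. Of the 1063 genes, 284 had an unadjusted p under 0.05 for DM against WT and not for ApoE4 against WT, 392 the reverse, 54 both and 333 neither. Over all genes the shares with such a p were 3.2% higher and 1.09% lower for DM against WT, and 3.57% higher and 2.89% lower for ApoE4 against WT. Of all 92 genes with such a p in both comparisons, 36 were higher in DM and lower in ApoE4 mice, 18 lower in DM and higher in ApoE4 mice, 33 higher in both and 5 lower in both. Per the study's methods the libraries of a group come from separate mice. The p-values rest on the spread between libraries, in which differences between animals, dissection and processing cannot be told apart. Same-numbered DM and WT libraries of batch 1 deviated together, and the main fit does not use this.

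**Figure D1:**
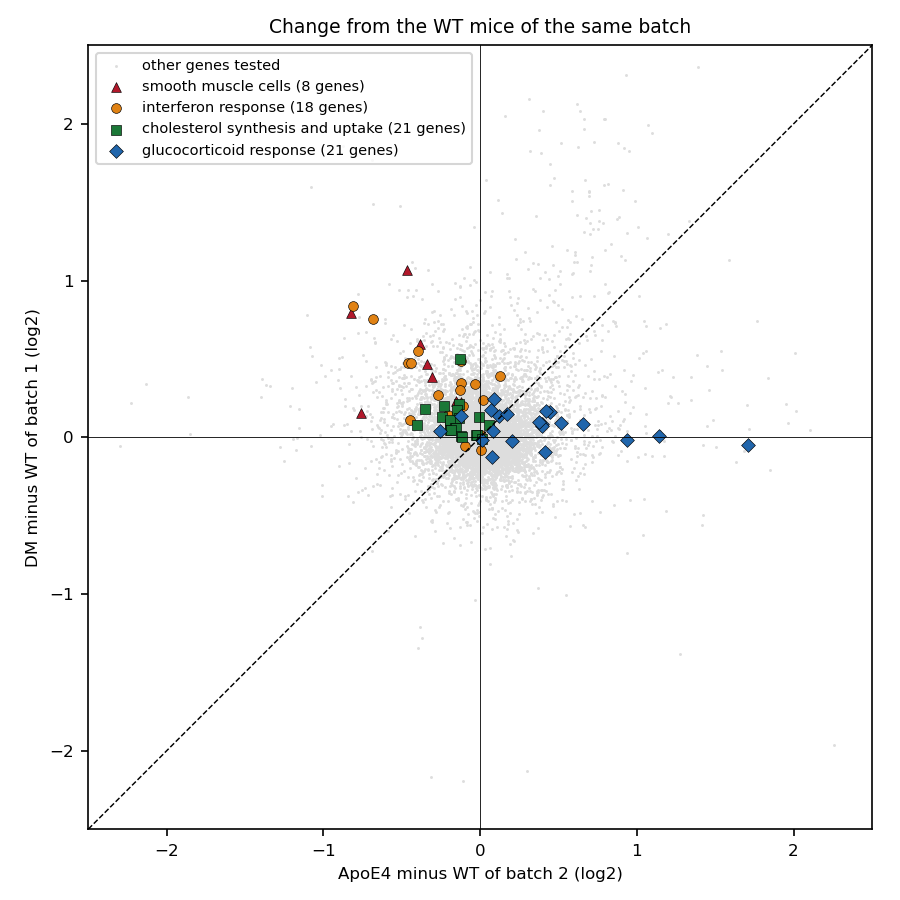
Each point is a gene, placed by its log2 difference between ApoE4 and WT mice of batch 2 (horizontal axis) and between DM and WT mice of batch 1 (vertical axis); the dashed diagonal is a difference of differences of 0, and 10 of the 16171 genes lie outside the axes. All 8 smooth muscle genes, 17 of 18 interferon genes and 20 of 21 cholesterol genes sit above the diagonal, and 5 of 21 glucocorticoid genes do.

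Total counts of the 12 libraries were 32754717 to 44630808. Long noncoding and antisense RNA took 2.86% of the counts in DM replicate 1 and 2.88% in WT replicate 1 of batch 1, against 2.16% to 2.32% in the other libraries of those 2 groups and 1.66% to 1.83% in batch 2. Transcripts typical of neighbouring tissue or of the pituitary varied between libraries. The study left prolactin out of its gene counts as a gene that the estrus cycle changes in mouse brain. The cause was not tested here. *Ttr*, the leading transcript of the choroid plexus, had 78067 counts in ApoE4 replicate 1 and 55478 in WT replicate 3 of batch 2, against 153 to 2635 in the other libraries. *Prl*, a pituitary hormone, had 13, 59 and 0 counts in DM mice and 3, 1 and 3 in their WT mice, and 6, 52 and 16 counts in ApoE4 mice and 162, 273 and 452 in theirs. Markers of striatal neurons stood apart in ApoE4 replicate 3, where the mean log2 CPM of the 15 genes was 2.95 above its WT mice, against 0.45 and 0.16 in the other ApoE4 libraries. The median difference of differences of that list was -1.47, and -0.025 without that library. The list of thalamus and habenula had a median of 0.81, and 0.06 without WT replicate 3 of batch 2.

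Markers of the vessel wall had higher values in DM mice than in ApoE4 mice, each relative to WT, and those of smooth muscle had them throughout the list. All 8 measured smooth muscle genes were higher in DM and lower in ApoE4 mice than in the WT mice of their batch, 5 had an unadjusted p under 0.05 with a higher value, against 4.08% of all genes, and 0 were called. Their median difference of differences was 0.86, beside medians of 0.43 in DM mice and -0.36 in ApoE4 mice, and leaving out any library kept it between 0.72 and 1.07. The lowest was without WT replicate 3 of batch 2. The smooth muscle score of that library was 0.36 relative to the WT mean, against -0.22 and -0.14 in the other WT libraries of its batch. *Synpo2* belongs both to this list and to that of thalamus and habenula. For all 8 the DM libraries lay above the ApoE4 libraries without overlap, against 14.1% of all genes. In whole tissue, fewer cells of a type and less RNA per cell cannot be told apart.

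*Myh11*, on chromosome 16 from 14194535 to 14291372 of GRCm38, encodes the smooth muscle myosin heavy chain and had the smallest p of all genes. It was at 3.63, 3.49 and 5.13 CPM in DM mice and 1.92, 2.68 and 2.44 CPM in their WT mice, and at 5.88, 4.998 and 5.41 CPM in ApoE4 mice and 8.22, 8.77 and 11.9 CPM in theirs. Every DM library was above every WT library of its batch and every ApoE4 library below every WT library of its own. The difference of differences was 1.62 (standard error 0.27, adjusted p = 0.367 by the quasi-likelihood test of edgeR), from 0.79 in DM mice and -0.83 in ApoE4 mice. *Acta2*, smooth muscle actin, had 5.44, 4.13 and 5.93 CPM in DM mice against 1.81, 2.59 and 2.99 CPM in WT mice, and 6.06, 7.99 and 8.47 CPM in ApoE4 mice against 7.87, 9.66 and 13.5 CPM in WT mice. DM and WT libraries did not overlap, while 2 ApoE4 libraries lay within the range of their WT mice. By quantitative PCR in mice of both sexes at 3 months, the study excepted *Acta2* from its statement that increases were absent in ApoE4 mice. Its difference of differences was 1.53 (standard error 0.36, edgeR adjusted p = 0.579), and that of *Tpm2*, a tropomyosin of contractile filaments, was 0.98 (standard error 0.21). *Mylk*, the kinase that starts contraction by phosphorylating myosin light chain, had 0.35 (standard error 0.11).

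The level itself ran the other way between batches. WT mice of batch 2 had more of all 8 smooth muscle transcripts than WT mice of batch 1, by a median of 1.35 on the log2 scale, and *Myh11* in DM mice averaged 4.08 ± 0.907 CPM (SD, n = 3), below the 5.43 ± 0.440 CPM (SD, n = 3) of ApoE4 mice. The same held for endothelial markers, all 39 of which were higher in WT mice of batch 2 than of batch 1, by a median of 0.94, and for 25 of 28 fibroblast markers, by 0.76. For *Myh11* a higher value in the contrast thus stands beside a lower level in DM mice than in ApoE4 mice. Whether the difference between the WT groups has a part in the contrast was not tested.

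**Figure D2:**
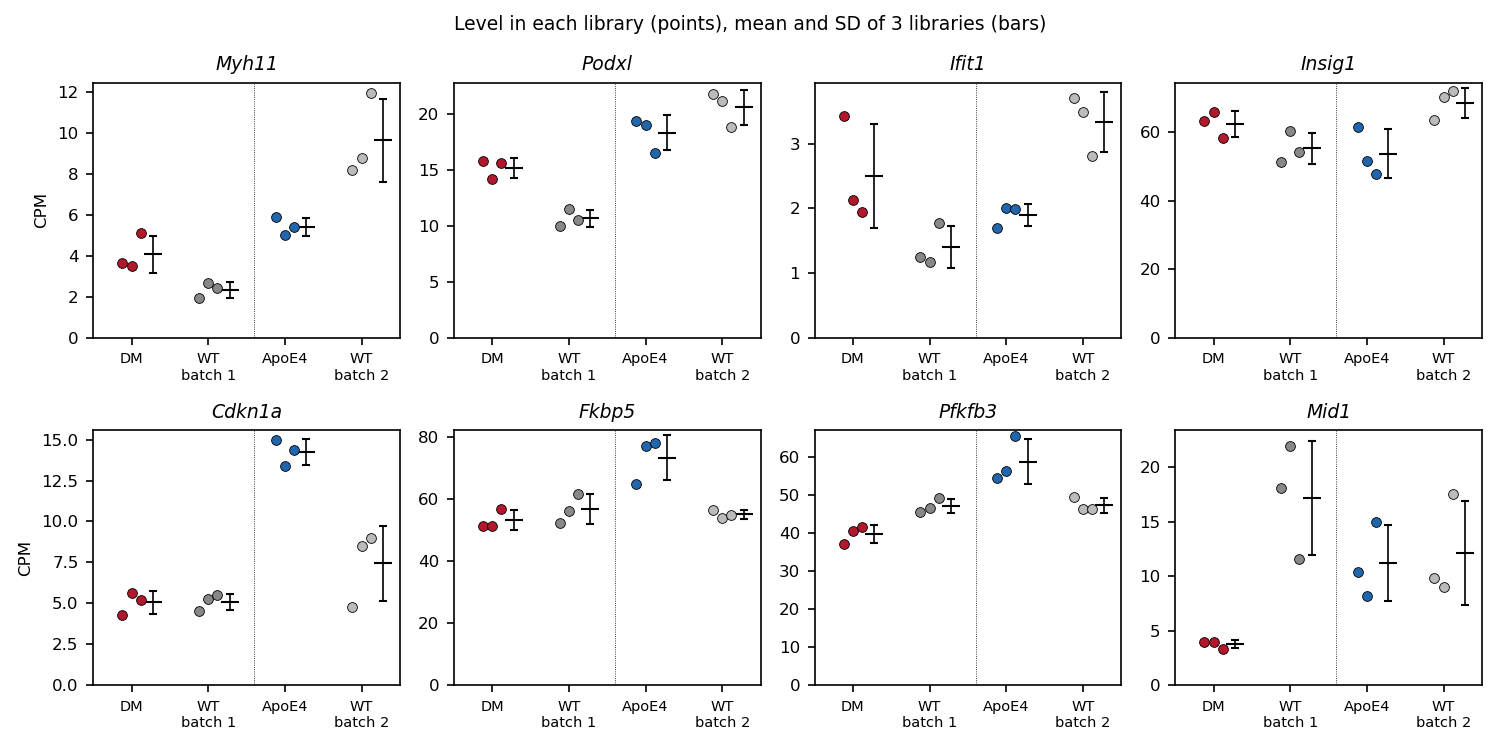
CPM (vertical axes, from 0) of 8 genes in the 3 libraries of DM mice, their WT mice of batch 1, ApoE4 mice and their WT mice of batch 2 (points), with the mean and SD of each group (bars); the dotted line parts the batches. Myh11 and Podxl are higher in DM than in WT mice of batch 1 but highest in WT mice of batch 2, Cdkn1a is highest in ApoE4 mice, and Mid1 is lowest in DM mice.

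Endothelial markers had a median difference of differences of 0.51, with 35 of 39 above 0, 19 with an unadjusted p under 0.05 in the higher direction and 0 in the lower, and 0 called. The median was 0.31 for DM against WT and -0.07 for ApoE4 against WT. Without DM replicate 3 it was 0.34, and without ApoE4 replicate 1 it was 0.66. *Podxl*, podocalyxin of the luminal endothelial surface, was at 15.8, 14.2 and 15.6 CPM in DM mice against 10.02, 11.5 and 10.5 CPM in WT mice, and at 19.4, 19.1 and 16.5 CPM in ApoE4 mice against 21.8, 21.2 and 18.8 CPM in WT mice. DM libraries were above all of their WT libraries, and ApoE4 libraries overlapped theirs. The difference of differences was 0.68 (standard error 0.12, edgeR adjusted p = 0.367). *Pecam1*, the adhesion molecule of endothelial junctions, had 7.91, 8.37 and 9.94 CPM in DM mice against 6.001, 5.92 and 4.73 CPM in WT mice, and 12.1, 12.99 and 10.7 CPM in ApoE4 mice against 13.7, 12.8 and 12.7 CPM in WT mice. Again the DM libraries were separate from WT and the ApoE4 libraries were not, with a value of 0.79 (standard error 0.17, edgeR adjusted p = 0.392).

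*Cldn5*, the main claudin of the blood-brain barrier, differed in the other component. It had 8.79, 6.40 and 10.1 CPM in DM mice against 6.21, 6.54 and 6.15 CPM in WT mice, which overlapped, and 9.05, 7.32 and 6.78 CPM in ApoE4 mice against 14.1, 10.2 and 9.47 CPM in WT mice, which did not. Its difference of differences of 0.96 (standard error 0.28) was 0.42 from DM and -0.54 from ApoE4 mice. *Cdh5*, vascular cadherin, had 0.79 (standard error 0.25) with an ApoE4 component of -0.07, *Ptprb*, a phosphatase of the vascular endothelium, 0.57 (standard error 0.18), and *Flt1*, a receptor for vascular endothelial growth factor, 0.51 (standard error 0.24). *Vwf*, von Willebrand factor, depended on a single library, since it had 11.8, 4.85 and 5.73 CPM in DM mice against 3.87, 4.01 and 4.37 CPM in WT mice, and its value of 0.88 became 0.37 without DM replicate 1. Junction proteins and transporters of the barrier as a list did not lean either way, with 9 of 18 above 0, 2 higher and 2 lower at an unadjusted p under 0.05 and a median of 0.02, which was -0.03 without ApoE4 replicate 3. Of these, *Slc7a5*, the large neutral amino acid transporter, was at 36.5, 33.6 and 33.4 CPM in DM mice against 36.9, 45.0 and 43.3 CPM in WT mice and had a value of -0.41 (standard error 0.12).

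Pericyte markers had a median of 0.26, with 12 of 15 above 0, 3 higher and 0 lower at an unadjusted p under 0.05 and 0 called. *Vtn*, vitronectin, which pericytes secrete, had 0.60 (standard error 0.17), mostly from ApoE4 mice (-0.38). Fibroblast markers of meninges and vessel sheath had 26 of 28 values above 0, 13 higher and 0 lower at an unadjusted p under 0.05, 0 called and a median of 0.91. Without WT replicate 3 of batch 2, whose fibroblast, thalamic and choroid plexus scores were above those of the other WT libraries of its batch, the median was 0.51. *Slc47a1*, a transporter of organic cations, was at 1.45, 1.88 and 2.09 CPM in DM mice and 0.204, 0.709 and 0.665 CPM in WT mice, and at 1.86, 0.859 and 1.16 CPM in ApoE4 mice and 1.12, 1.78 and 3.43 CPM in WT mice. *Islr*, a marker of fibroblasts, had 12.8, 10.6 and 11.7 CPM in DM mice against 7.72, 8.63 and 7.14 CPM in WT mice, and 11.9, 8.70 and 11.6 CPM in ApoE4 mice against 9.36, 13.2 and 17.2 CPM in WT mice. For both genes the DM libraries exceeded all of their WT libraries, while 2 ApoE4 libraries lay within the range of theirs.

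Of 53 collagens and matrix genes, 37 were above 0 and the median was 0.14, with 6 higher and 1 lower at an unadjusted p under 0.05 and 0 called. That median was 0.067 without WT replicate 3 of batch 2 and 0.24 without ApoE4 replicate 1. *Fn1*, fibronectin, had 42.1, 35.1 and 39.1 CPM in DM mice against 32.5, 29.6 and 31.2 CPM in WT mice, and 38.2, 40.3 and 26.5 CPM in ApoE4 mice against 41.6, 45.4 and 46.5 CPM in WT mice. All DM libraries were above and all ApoE4 libraries below their WT libraries, and the value was 0.66 (standard error 0.19). Genes of plasminogen and coagulation control had 8 of 10 above 0, 3 higher and 0 lower at an unadjusted p under 0.05, 0 called and a median of 0.26, which was 0.15 without WT replicate 3 of batch 2 and 0.48 without WT replicate 1. Of these, *Plau*, the urokinase plasminogen activator, stood apart from WT in the same opposite way, with 2.20, 2.36 and 2.69 CPM in DM mice against 1.54, 1.97 and 1.69 CPM in WT mice and 1.497, 1.33 and 1.67 CPM in ApoE4 mice against 2.32, 1.88 and 2.03 CPM in WT mice. Its value was 0.94 (standard error 0.24). *Anxa2*, a plasminogen receptor of endothelial cells, was higher in DM than in WT mice (0.93) with 0.08 in ApoE4 mice, as was *Cavin1*, a coat protein of caveolae, with 0.66 and -0.07. *Thbd*, thrombomodulin, had 1.10 (standard error 0.34).

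**Figure D3:**
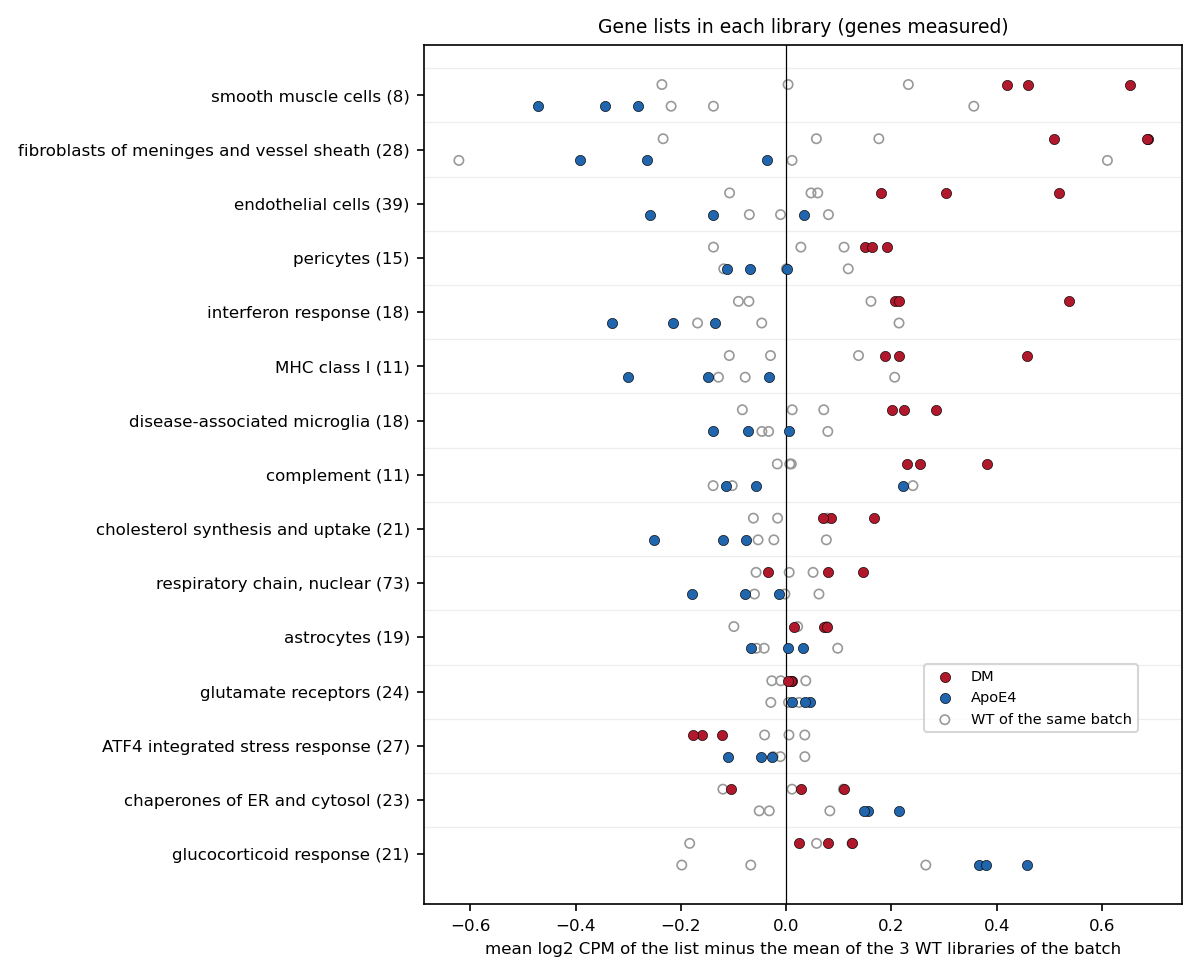
Mean log2 CPM of the genes of 15 lists in each library, less the mean of the 3 WT libraries of its batch (horizontal axis); filled points are DM libraries (upper row of each list) and ApoE4 libraries (lower row), open points the WT libraries, and the number of genes measured is in brackets. DM libraries lie right of all WT libraries of their batch for smooth muscle, fibroblast, endothelial, pericyte and interferon genes. They also do so for MHC class I, disease-associated microglia and complement genes. ApoE4 libraries lie right of theirs for glucocorticoid genes and chaperones.

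Innate immune genes of the interferon response had higher values in DM than in ApoE4 mice. Of 18 measured genes 17 were above 0, 7 were higher and 0 lower at an unadjusted p under 0.05, and 0 were called. The median was 0.45, beside 0.32 in DM mice and -0.13 in ApoE4 mice, and 0.36 to 0.52 with 1 library left out. *Ifit1*, which binds foreign RNA and whose promoter is shown above, was at 3.42, 2.13 and 1.95 CPM in DM mice against 1.25, 1.17 and 1.77 CPM in WT mice, and at 1.70, 2.00 and 2.00 CPM in ApoE4 mice against 3.71, 3.48 and 2.81 CPM in WT mice. DM libraries lay above and ApoE4 libraries below all their WT libraries, although DM replicate 1 was well above the other DM libraries. The value was 1.65 (standard error 0.37, edgeR adjusted p = 0.541). *Ifit3*, a gene of the same family, had 8.06, 6.79 and 5.99 CPM in DM mice against 3.44, 5.43 and 6.15 CPM in WT mice, and 5.498, 5.52 and 5.99 CPM in ApoE4 mice against 9.34, 7.06 and 7.02 CPM in WT mice. DM and WT libraries overlapped here and ApoE4 and WT libraries did not, with a value of 0.93 (standard error 0.26). Genes of the *Ifit* family are similar in sequence, so their counts are uncertain. WT mice of batch 2 had higher values than WT mice of batch 1 for 17 of the 18 genes, with a median of 0.34.

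Genes of antigen presentation by MHC class I ran in parallel. All 11 were above 0, 5 were higher and 0 lower at an unadjusted p under 0.05, 0 were called and the median was 0.36. *B2m*, the light chain that all class I molecules share, had 60.1, 62.3 and 67.4 CPM in DM mice against 53.2, 56.9 and 56.7 CPM in WT mice, and 61.7, 54.0 and 55.8 CPM in ApoE4 mice against 69.8, 63.3 and 60.1 CPM in WT mice. The DM libraries were higher than all of their WT libraries and 1 ApoE4 library lay within the WT range, with a value of 0.36 (standard error 0.11). *H2-Q4*, a class I gene of the Q region, had 1.36 (standard error 0.29, edgeR adjusted p = 0.392), from 0.76 in DM and -0.61 in ApoE4 mice. It belongs to a family of near-identical copies, and its counts are uncertain.

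Among microglial genes the homeostatic set had 11 of 15 above 0, 2 higher and 0 lower at an unadjusted p under 0.05 and a median of 0.12, which was 0.023 without WT replicate 1 of batch 2. The set of disease-associated microglia, which surround plaques, had 14 of 18 above 0, 7 higher and 0 lower, 0 called and a median of 0.18. *Ccl6*, a chemokine of myeloid cells, was at 3.40, 2.88 and 3.72 CPM in DM mice against 1.63, 1.73 and 1.47 CPM in WT mice, and at 1.27, 1.51 and 1.53 CPM in ApoE4 mice against 1.601, 1.35 and 1.17 CPM in WT mice. The DM libraries stood apart from WT and the ApoE4 libraries lay within the WT range, and the value of 0.99 (standard error 0.35) came from the DM side (1.05). *Trem2*, the lipid receptor of microglia that senses plaques, was at 13.9, 11.8 and 12.4 CPM in DM mice against 9.61, 11.2 and 10.8 CPM in WT mice, and at 9.32, 8.41 and 8.24 CPM in ApoE4 mice against 10.03, 9.12 and 8.30 CPM in WT mice. Its value was 0.35 (standard error 0.14), and that of *Tyrobp*, its signalling adaptor, 0.34 (standard error 0.16). For these 3 genes the WT libraries of batch 2 averaged below those of batch 1, unlike the vascular genes.

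*Lyz2*, lysozyme, had 0.56 (standard error 0.20) with DM libraries above all WT libraries. *Spp1*, osteopontin, overlapped between mutant and WT mice in both batches, at 2.696, 3.63 and 4.90 CPM in DM mice and 1.54, 2.74 and 2.49 CPM in WT mice, and 4.60, 4.58 and 3.71 CPM in ApoE4 mice and 2.11, 6.61 and 9.29 CPM in WT mice. Complement genes had 9 of 11 above 0, 4 higher and 0 lower at an unadjusted p under 0.05 and a median of 0.30. That median was 0.19 without WT replicate 1 of batch 1, and 0.14 without it and DM replicate 1. *C1qc*, a chain of the initiator C1q, was at 41.9, 39.1 and 40.7 CPM in DM mice against 34.6, 36.2 and 36.9 CPM in WT mice, and at 33.9, 33.0 and 30.8 CPM in ApoE4 mice against 35.5, 32.2 and 38.4 CPM in WT mice. The difference of differences was 0.30 (standard error 0.09), with the DM libraries above WT and the ApoE4 libraries overlapping theirs. Astrocyte markers gave 12 of 19 above 0, 0 in either direction at an unadjusted p under 0.05 and a median of 0.06, which was -0.024 without WT replicate 1 of batch 1.

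**Figure D4:**
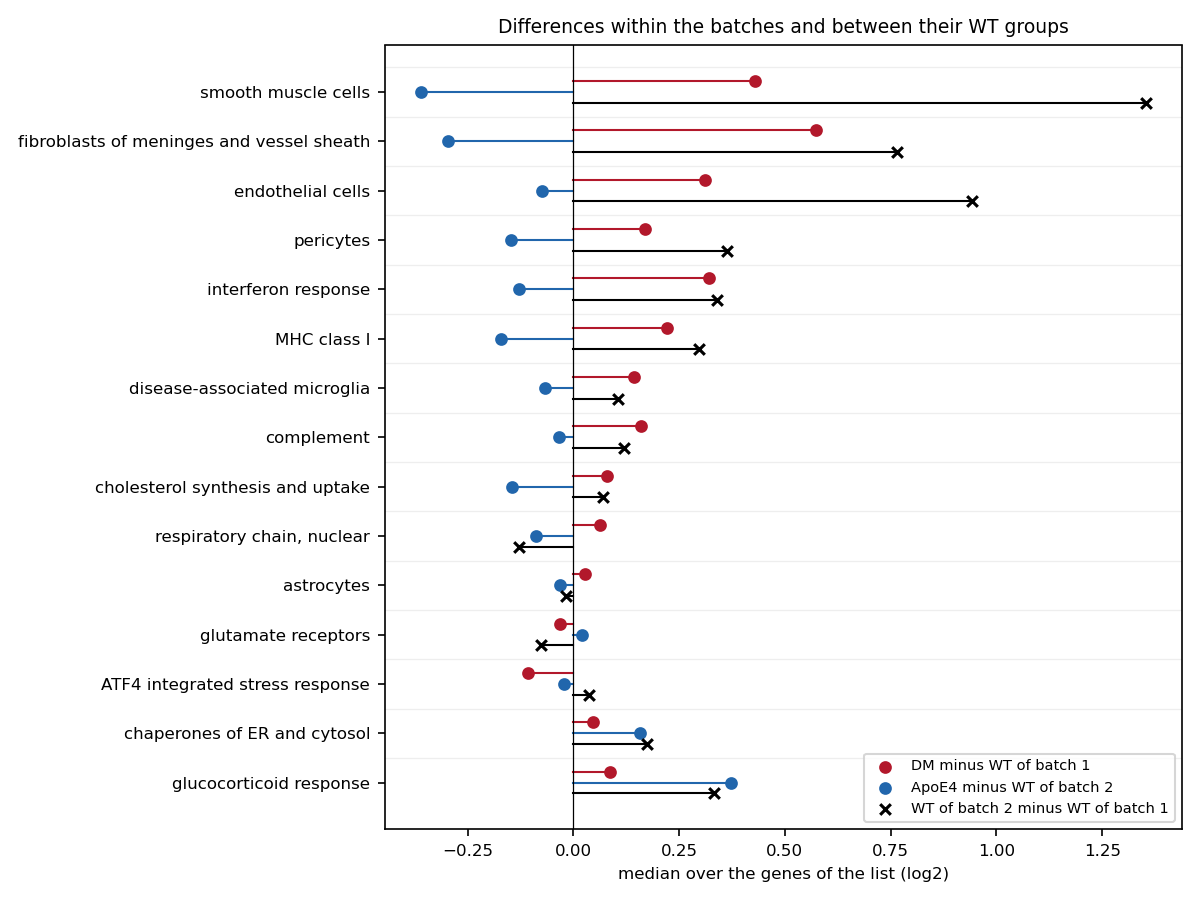
Median log2 difference over the genes of 15 lists (horizontal axis) between DM mice and WT mice of batch 1, between ApoE4 mice and WT mice of batch 2, and between the WT mice of batch 2 and batch 1 (crosses). For smooth muscle, endothelial, fibroblast and pericyte genes the WT groups differ by more than either mutant does from its WT, whereas the cholesterol list has 0.08 in DM mice, -0.15 in ApoE4 mice and 0.07 between the WT groups.

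Cholesterol synthesis and uptake genes had small values in a common direction. Of 21 genes 20 were above 0, 9 were higher and 0 lower at an unadjusted p under 0.05 and 0 were called, with a median of 0.24, beside medians of 0.08 in DM mice and -0.15 in ApoE4 mice. The median was 0.18 to 0.32 with 1 library left out. *Insig1*, the sterol-regulated brake on the pathway, was at 63.1, 65.9 and 58.4 CPM in DM mice against 51.2, 60.3 and 54.1 CPM in WT mice, and at 61.6, 51.6 and 47.9 CPM in ApoE4 mice against 63.6, 70.4 and 71.9 CPM in WT mice. The ApoE4 libraries were below all their WT libraries and the DM libraries overlapped theirs, with a value of 0.53 (standard error 0.13, edgeR adjusted p = 0.579). *Nsdhl*, a late enzyme of the pathway, had narrow groups, 18.5, 20.3 and 19.0 CPM in DM mice against 16.3, 17.3 and 16.3 CPM in WT mice and 15.6, 15.6 and 15.5 CPM in ApoE4 mice against 16.7, 18.1 and 16.5 CPM in WT mice. It lay above WT in every DM library and below WT in every ApoE4 library, and had 0.35 (standard error 0.12).

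Nuclear-encoded respiratory chain genes shared a direction at still smaller size. Of 73 genes 71 were above 0 and 62 were higher in DM and lower in ApoE4 mice than in WT mice, 13 were higher and 0 lower at an unadjusted p under 0.05, and 0 were called. The median was 0.16, and under TMM, the median of ratios and the other settings it was 0.13 to 0.17. It was 0.11 without ApoE4 replicate 3 and 0.21 without DM replicate 1. The mean log2 CPM of the list overlapped between mutant and WT libraries in both batches. Relative to WT it was -0.035 in DM replicate 1, below the -0.013 of ApoE4 replicate 1. *Atp5j2*, a subunit of ATP synthase, was at 148, 164 and 166 CPM in DM mice against 129, 139 and 141 CPM in WT mice, and at 103, 96.0 and 90.0 CPM in ApoE4 mice against 99.1, 102 and 115 CPM in WT mice. DM libraries were separate from WT and ApoE4 libraries were not, with a value of 0.35 (standard error 0.10). *Cox7c*, a subunit of cytochrome oxidase, had 0.36 (standard error 0.13). For the transcripts of the mitochondrial genome 5 of 13 were above 0, with a median of -0.06, which was 0.021 without WT replicate 2 of batch 1. Cytosolic ribosomal protein genes had 66 of 76 above 0 and a median of 0.10, with 2 higher and 0 lower at an unadjusted p under 0.05. Their median was 0.059 without WT replicate 1 of batch 1 and 0.16 without DM replicate 1.

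On the lower side, genes of the glucocorticoid response had values above WT in ApoE4 mice and near WT in DM mice. Of 21 genes 5 were above 0, 0 were higher and 4 lower at an unadjusted p under 0.05, against 2.49% of all genes that were lower, and 0 were called, with a median of -0.25, beside medians of 0.09 in DM and 0.37 in ApoE4 mice. For 12 of the 21 the DM libraries lay below the ApoE4 libraries without overlap, against 9.74% of all genes. The median was -0.16 without WT replicate 3 of batch 1 and -0.38 without WT replicate 3 of batch 2. *Fkbp5*, a co-chaperone of the glucocorticoid receptor and its classical target, was at 51.3, 51.3 and 56.8 CPM in DM mice against 52.3, 56.0 and 61.7 CPM in WT mice, and at 64.9, 77.0 and 78.0 CPM in ApoE4 mice against 56.6, 53.8 and 54.8 CPM in WT mice. The ApoE4 libraries were above all of their WT libraries and the DM libraries overlapped theirs, and the value was -0.51 (standard error 0.15, edgeR adjusted p = 0.638). *Cdkn1a*, the cell cycle inhibitor p21, had 4.30, 5.65 and 5.18 CPM in DM mice against 4.54, 5.24 and 5.48 CPM in WT mice, and 14.95, 13.4 and 14.4 CPM in ApoE4 mice against 4.78, 8.51 and 9.002 CPM in WT mice. Its value was -0.95 (standard error 0.28), with -0.02 from DM mice, and all ApoE4 libraries again exceeded WT.

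*Hif3a*, a hypoxia-inducible factor that glucocorticoids also induce, was at 7.26, 6.98 and 7.42 CPM in DM mice against 5.19, 7.25 and 9.05 CPM in WT mice, and at 11.7, 14.9 and 15.4 CPM in ApoE4 mice against 4.70, 5.67 and 8.59 CPM in WT mice. It had -1.14 (standard error 0.41) and lies within 5 Mb of *Apoe*, where its value was the lowest of 96 genes. *Zbtb16*, a zinc finger repressor, had -0.42 (standard error 0.16). The component in DM mice was near 0 for *Fkbp5*, *Hif3a* and *Zbtb16* (-0.09, 0.01 and 0.09). Immediate early genes of neuronal activity had 13 of 25 above 0 and a median of 0.01, which was -0.041 without WT replicate 1 of batch 2 and 0.092 without WT replicate 1 of batch 1.

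Chaperones of the endoplasmic reticulum and cytosol had 6 of 23 above 0, 0 higher and 5 lower at an unadjusted p under 0.05, 0 called and a median of -0.13, which was -0.05 without WT replicate 3 of batch 1 and -0.23 without WT replicate 1. *Creld2*, an endoplasmic reticulum protein induced by unfolded proteins, was at 10.03, 11.6 and 10.8 CPM in DM mice against 11.2, 12.2 and 11.5 CPM in WT mice, and at 17.0, 15.1 and 16.3 CPM in ApoE4 mice against 11.9, 11.5 and 14.1 CPM in WT mice. The ApoE4 libraries were above WT, and the value was -0.47 (standard error 0.13). *Hspa1a*, an inducible Hsp70, had -0.64 (standard error 0.17), but its near-identical copy *Hspa1b* (-0.64) makes both counts uncertain. Genes of the ATF4 stress response had 8 of 27 above 0, 0 higher and 5 lower at an unadjusted p under 0.05 and a median of -0.05, which was -0.096 without WT replicate 1 of batch 1 and -0.020 without DM replicate 1. *Mthfd2*, a mitochondrial enzyme of folate metabolism and an ATF4 target, was at 5.16, 5.10 and 6.30 CPM in DM mice against 7.78, 8.63 and 8.22 CPM in WT mice, and at 10.7, 9.53 and 9.61 CPM in ApoE4 mice against 8.51, 9.15 and 10.02 CPM in WT mice. Here the DM libraries were the separate ones, below WT, with a value of -0.68 (standard error 0.16, edgeR adjusted p = 0.579). *Atf4* itself, at 77.3, 80.2 and 80.9 CPM in DM mice against 96.8, 110.0 and 111 CPM in WT mice, had -0.32 (standard error 0.10).

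A lower value carried by DM mice was that of *Mid1*, a ubiquitin ligase of microtubules on chromosome X from 169685199 to 170005736. It had 3.97, 3.93 and 3.35 CPM in DM mice against 18.1, 21.95 and 11.6 CPM in WT mice, and 10.4, 8.20 and 15.01 CPM in ApoE4 mice against 9.82, 8.99 and 17.6 CPM in WT mice. The *App* single mutants of batch 1 were also low, at 4.43, 5.25 and 5.14 CPM. All DM libraries were below those of every other group, and the WT libraries of each batch were scattered. The difference of differences was -2.08 (standard error 0.41, edgeR adjusted p = 0.367), with -2.19 in DM and -0.11 in ApoE4 mice. *Bok*, a pro-apoptotic member of the Bcl-2 family that marks CA3 neurons, was at 41.1, 49.0 and 46.0 CPM in DM mice against 63.8, 70.3 and 69.7 CPM in WT mice, and at 82.0, 68.4 and 85.8 CPM in ApoE4 mice against 69.8, 65.1 and 74.8 CPM in WT mice. The DM libraries were below all of their WT libraries and the ApoE4 libraries overlapped theirs, and the value was -0.76 (standard error 0.15, edgeR adjusted p = 0.367). Of the 13 markers of CA2 and CA3 neurons, 6 were above 0 and the median was -0.03, which was 0.016 without ApoE4 replicate 3.

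*Pfkfb3*, which makes the activator of glycolysis fructose 2,6-bisphosphate, differed from WT in opposite directions. It was at 37.0, 40.6 and 41.5 CPM in DM mice against 45.5, 46.6 and 49.3 CPM in WT mice, and at 54.4, 56.4 and 65.6 CPM in ApoE4 mice against 49.6, 46.2 and 46.2 CPM in WT mice. No DM or ApoE4 library overlapped its WT libraries, and the value was -0.56 (standard error 0.11, edgeR adjusted p = 0.367). *Zhx2*, a homeobox repressor, had -0.42 (standard error 0.09), *Sf3b4*, a splicing factor, -0.32 (standard error 0.07), and *Tead1*, the DNA-binding partner of the Hippo pathway, -0.44 (standard error 0.11), all 3 with the same opposite separation from WT. *Mrtfa*, an actin-regulated coactivator of serum response factor, was at 63.0, 60.9 and 59.4 CPM in DM mice against 70.2, 60.7 and 66.6 CPM in WT mice, and at 67.3, 72.6 and 79.8 CPM in ApoE4 mice against 61.2, 55.5 and 58.5 CPM in WT mice. Its ApoE4 libraries were above WT, and its value of -0.43 (standard error 0.11) was opposite in sign to those of the smooth muscle genes. *Adar*, which edits adenosine in RNA, had -0.27 (standard error 0.07), *Klhl29* -0.30 (standard error 0.07) and *Wscd2* -0.52 (standard error 0.11).

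Other genes with higher values had separate roles. *Ndst4*, an enzyme that sulfates heparan chains, was at 47.9, 48.5 and 49.8 CPM in DM mice against 38.3, 45.2 and 38.7 CPM in WT mice, and at 28.5, 32.8 and 29.1 CPM in ApoE4 mice against 38.8, 42.7 and 35.4 CPM in WT mice. *Hdac9*, a class IIa histone deacetylase, had 56.2, 54.9 and 49.7 CPM in DM mice against 47.4, 47.4 and 45.4 CPM in WT mice, and 46.5, 45.4 and 41.1 CPM in ApoE4 mice against 49.1, 52.7 and 55.1 CPM in WT mice. Both lay above WT in every DM library and below it in every ApoE4 library, with values of 0.63 (standard error 0.12, edgeR adjusted p = 0.367) and 0.44 (standard error 0.09, edgeR adjusted p = 0.392). *Trabd2b*, a protease that inactivates Wnt proteins, had 1.33 (standard error 0.28) and *Arhgap29*, a GTPase-activating protein, 0.53 (standard error 0.12).

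Among neuronal lists, CA1 pyramidal genes had a median of -0.05 (5 of 11 above 0), dentate granule genes -0.12 (4 of 16) and glutamate receptors -0.08 (7 of 24), and synaptic vesicle genes had 0.03 (13 of 24). Each of these medians depended on single libraries. The CA1 median was 0.061 without WT replicate 3 of batch 2, and the dentate median 0.015 without WT replicate 1 of batch 1. The median of glutamate receptors was -0.018 without ApoE4 replicate 3, and that of synaptic vesicle genes -0.0073 without DM replicate 2. Interneuron and neuropeptide genes had a median of -0.17, with 7 of 19 above 0, 2 higher and 4 lower at an unadjusted p under 0.05, and the median was -0.090 without WT replicate 3 of batch 2. *Penk*, the enkephalin precursor, shows how the striatal library enters that list: it was at 25.8, 23.1 and 20.8 CPM in DM mice and 23.1, 23.6 and 21.04 CPM in WT mice, and at 29.6, 19.4 and 221 CPM in ApoE4 mice and 17.4, 22.6 and 22.8 CPM in WT mice. Its value of -2.06 became -0.19 without ApoE4 replicate 3. *Pvalb*, parvalbumin of fast-spiking interneurons, had 0.51 (standard error 0.19), with -0.36 in ApoE4 mice, and 0.32 without ApoE4 replicate 3. Myelin genes had a median of 0.10 with 15 of 20 above 0, which was -0.013 without WT replicate 1 of batch 1. Of the 20 genes that the study's text names, 19 were above 0 and the median was 0.65, but they were picked on these samples and are not independent evidence of a direction.

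Genes of motile cilia in ependymal cells had medians relative to WT of 0.89 in DM mice, whose libraries all lay above WT, and 0.55 in ApoE4 mice, whose libraries overlapped theirs. The difference of differences had 16 of 21 above 0 and a median of 0.31, which was -0.03 without WT replicate 3 of batch 2 and 0.63 without ApoE4 replicate 3.

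The targeted genes themselves overlapped with WT in both batches. *App* was at 1275, 1402 and 1350.1 CPM in DM mice against 1319, 1444 and 1411 CPM in WT mice, and at 1576, 1527 and 1647 CPM in ApoE4 mice against 1561, 1522 and 1532 CPM in WT mice, with a value of -0.09 (standard error 0.08). *Apoe* was at 1604, 1476 and 1711 CPM in DM mice against 1421, 1485 and 1614 CPM in WT mice, and at 1712, 1599 and 1495 CPM in ApoE4 mice against 1568, 1642 and 1827 CPM in WT mice, with 0.15 (standard error 0.12). Human and mouse reads share the *Apoe* row, and neither knock-in is a deletion, so these levels do not check the labels. Of 19 genes within 5 Mb of *App* 14 were above 0, with a median of 0.04 and 1 higher at an unadjusted p under 0.05, and of 96 genes within 5 Mb of *Apoe* 51 were above 0, with a median of 0.01, 7 higher and 2 lower. These medians were 0.12 for *App* without DM replicate 1 and -0.0070 for *Apoe* without WT replicate 1 of batch 2. The 2 lower genes near *Apoe* included *Hif3a*. The list of *App* family and secretase genes had 8 of 18 above 0 and a median near 0.

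**Figure D5:**
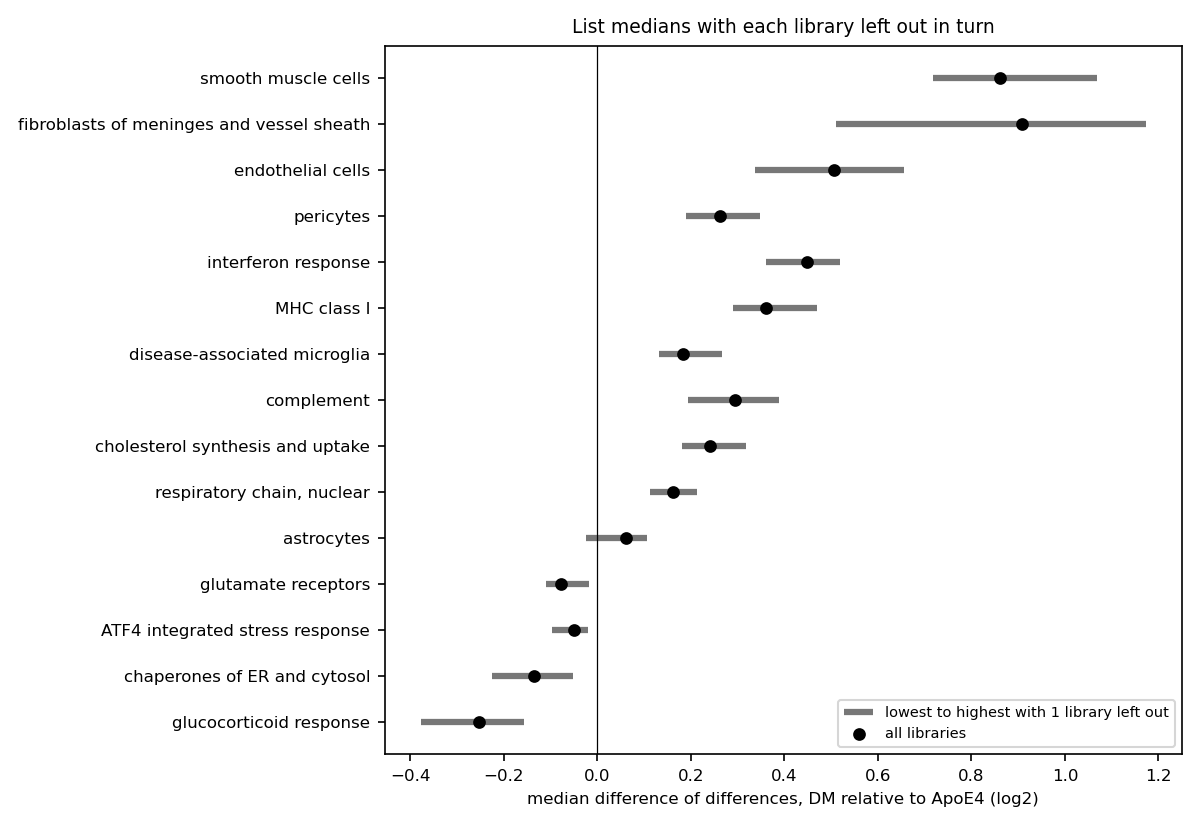
Median difference of differences of 15 gene lists (points) and its lowest and highest value when each of the 15 libraries was left out in turn (bars), on the log2 scale. The lists of the vessel wall keep values above 0 in all 15 fits, with 0.72 to 1.07 for smooth muscle and 0.51 to 1.17 for fibroblasts, the glucocorticoid list keeps values below 0, and the astrocyte list crosses 0.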

How the data were processed

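Poly(A) RNA of whole hippocampus was sequenced from 15 libraries in 2 batches. Per the labels and the study's methods, the authors trimmed reads with Trimmomatic 0.39, aligned them to the GENCODE mouse reference and human *APOE* RNA with STAR 2.7.1a, and deposited raw counts per gene made with HTSeq 0.11.2. Human and mouse *APOE* counts stand in 1 row. Whether HTSeq took strand into account is not stated in those sources. From these counts, genes above 1 CPM in 3 or more libraries were retained, upper quartile factors were computed and the quasi-likelihood test of edgeR 4.0.16 (R 4.3.3) was fitted with all 5 groups, which share the estimate of spread. P-values were adjusted by Benjamini-Hochberg over 16171 genes. Symbols were matched for 55230 of 55471 IDs from a GRCm38 annotation. The comparison, its gene lists and the promoters shown were chosen with earlier results of these data known. Genes were named by smallest p in the contrast, up to 10 a direction. These had to have a mean CPM of at least 1 and no overlap between DM and ApoE4 libraries. Up to 6 a direction were added with an unadjusted p under 0.05 and opposite signs in both components. Up to 4 a list and the genes that the study's text names were added as well. Scalings, filters, the robust likelihood ratio test, DESeq2 1.42.0, a replicate block and leaving out each library were the alternatives, and the scripts were tested on simulated data. Intervals are not given, since each group has only 3 libraries. A standard error is the absolute log2 value over the square root of the F statistic, so it uses the shared spread. Some single genes of the lists are not reported here. Same-numbered DM and WT libraries of batch 1 deviated together (correlations of 0.446, 0.195 and 0.301), so their numbers were read as pairs from the data. Those of batch 2 (-0.273, 0.0578 and 0.0659) were not. The main fit, with its p-values and standard errors, does not use these pairs, and a block entered only in alternative fits.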

Additional observations from a re-analysis of the deposited data

Results flagged for a closer look

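For 16 named genes every DM library lay on one side of all WT libraries of its batch and every ApoE4 library on the opposite side of its own, and the difference of differences was the test of that difference. None passed in the quasi-likelihood test of edgeR, where adjusted p was 0.367 or more for each. The robust likelihood ratio test called all of them except *Sf3b4*, *Plau* and *Nsdhl*. DESeq2 called all except *Plau*, *Hspa1a*, *Fn1* and *Nsdhl*. Over all genes such opposite separation was found for 0.6% with DM above WT and ApoE4 below it and for 0.315% with the reverse. Named genes were picked by small p in this contrast, many with non-overlapping libraries or opposite signs as a condition. Their number therefore cannot be compared with these shares. The values with DM above WT were 1.62 for *Myh11*, 0.63 for *Ndst4*, 0.44 for *Hdac9*, 1.36 for *H2-Q4*, 1.33 for *Trabd2b*, 0.98 for *Tpm2*, 0.53 for *Arhgap29*, 1.65 for *Ifit1*, 0.94 for *Plau*, 0.66 for *Fn1* and 0.35 for *Nsdhl*. Those with DM below WT were -0.56 for *Pfkfb3*, -0.42 for *Zhx2*, -0.32 for *Sf3b4*, -0.44 for *Tead1* and -0.64 for *Hspa1a*.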

How the results depend on the processing

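The quasi-likelihood test called 0 genes, the robust likelihood ratio test 72 (44 higher, 28 lower), DESeq2 31 (15 higher, 16 lower), the test with no filter on low counts 3 (1 higher, 2 lower), and leaving out 1 library 0 to 1. With the replicate block in batch 1 only, 0 genes were called (lowest adjusted p = 0.277 by edgeR) and 1261 had an unadjusted p under 0.05, so the block changed no call. With the replicate block in both batches 1 gene was called, *Mid1*, lower at -2.08 (adjusted p = 0.0120 by edgeR), although the numbers do not pair the libraries of batch 2. The striatal median of -1.47 was -0.34 under the likelihood ratio test and -1.91 to -0.025 with 1 library left out. Such ranges were 0.34 to 0.66 for endothelial, 0.51 to 1.17 for fibroblast, 0.18 to 0.32 for cholesterol and 0.13 to 0.27 for disease-associated microglia genes. Without ApoE4 replicate 1 and WT replicate 3 of batch 2, an alternative chosen after seeing the data, the medians were 0.66 for endothelial, 0.52 for MHC class I and 0.33 for cholesterol genes. Some single genes changed sign without 1 library, with ranges of -0.167 to 1.59 for *Calml4*, -0.011 to 0.40 for *Fibcd1*, -0.541 to 0.044 for *Kcnq1ot1*, -0.799 to 3.16 for *Folr1*, -0.281 to 0.0069 for *Xist*, -0.365 to 0.052 for *mt-Co2*, -0.0065 to 0.121 for *mt-Nd5*, -0.487 to 1.03 for *Slc2a12* and -1.94 to 0.639 for *Prlr*. *mt-Nd5* was at -0.023 without DM replicate 1 and WT replicate 1 of batch 1. The causes were not tested.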
